A study of Homo sapiens and Mus musculus with 54 samples.

Results

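Where the aryl hydrocarbon receptor (AhR), the liver factor C/EBPα and the histone mark H3K27ac lay was described at 9 genes of the NRF2 pathway, out of 19974 protein-coding genes. The 9 genes were named one by one for their roles: NFE2L2, which encodes NRF2, its regulators KEAP1 and MAFG, the glutathione and redox genes GCLC, GCLM, SRXN1 and SLC7A11, the stress-response gene OSGIN1, and the export pump gene ABCC3. Every row of 4 deposited HepG2 lists that lay within 50 kb of the RefSeq body of one of them was counted as a row of that gene. The rule used no measured value, but the genes were chosen with earlier results of these data known. All 9 genes were found in the annotation, no peak lay in the windows of 2 of them, and all 9 had rows in all 4 lists.

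The series held 54 ChIP-seq libraries, 30 of them from HepG2, a human liver cancer cell line, and the rest from mice, which were not analysed here. HepG2 cells were kept without vitamin B2 (B2-deficient) or as controls until day 12. AhR and C/EBPα were each immunoprecipitated from 2 B2-deficient and 2 control samples, and H3K27ac, a mark of active enhancers and promoters, from 5 and 5. A second H3K27ac experiment, also at day 12, had 2 B2-deficient samples with an AhR inhibitor, 2 B2-deficient samples with DMSO and 2 control samples with DMSO. The agent used as inhibitor is not named in the labels. Input libraries were sequenced beside the factor ChIPs. Per the labels' protocols, cells for both factors were fixed with disuccinimidyl glutarate and formaldehyde, and cells for H3K27ac with formaldehyde alone.

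Each experiment was deposited as 1 list of positions, without a value for any library. The 2 H3K27ac lists are called the inhibitor list and the B2 list, after their experiments. Each list is named for a whole experiment, no source used here says which conditions entered it, and neither can be read as a list of inhibitor-treated or B2-deficient cells alone. No difference between B2-deficient and control cells, or between inhibitor and DMSO, could therefore be measured, and the depth behind each peak is unknown. All samples were of 1 cell line, so that replicates and conditions share 1 genome. The hepatocyte genes ALB, APOA1, HNF4A, TTR and SERPINA1 all had H3K27ac regions within 50 kb, with 10 to 61 in the inhibitor list and likewise 10 to 61 in the B2 list. Of all protein-coding genes, 88.1% had such a region in the inhibitor list and 90.4% in the B2 list, with medians of 6 and 7. Having such a region thus tells little of cell type.

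NRF2 is the main transcription factor of the response to oxidants and electrophiles. In unstressed cells KEAP1 holds it in a ubiquitin ligase complex and it is degraded; when KEAP1 is modified, NRF2 accumulates, pairs with a small MAF protein such as MAFG and binds antioxidant response elements beside genes of glutathione synthesis, redox repair and export. AhR, when bound by a ligand, pairs with ARNT and binds a short core sequence, and several detoxification genes are known as targets of both factors. In the liver, C/EBPα is a factor of hepatocyte identity that occupies many enhancers.

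The promoters that an AhR peak reached are shown first, since there the sequence under the peak can be read. A promoter window ran from 250 bases before to 50 bases after an annotated start, and 7 of the 9 genes had one in the RefSeq table (GRCh38.p14, the assembly of hg38). NFE2L2 and KEAP1 had 2 windows each, which made 9. The other 2 were SLC7A11 and ABCC3. The 250 bases before the start are printed 5′ to 3′ on the strand of the gene, for the 5 windows that an AhR peak overlapped and, last, for GCLC, which had no peak there. Capitals mark matches to the AhR core GCGTG, to the antioxidant response element core TGACNNNGC or to the C/EBP site TTGCNNAA. Both strands were searched, and a match on the other strand is printed as its reverse complement. No match overlapped another. All but OSGIN1 lie on the minus strand. The stretches are NFE2L2 chr2:177264728-177264977, KEAP1 chr19:10502772-10503021, GCLM chr1:93909431-93909680, SRXN1 chr20:653201-653450, OSGIN1 chr16:83952990-83953239 and GCLC chr6:53545102-53545351.
NFE2L2: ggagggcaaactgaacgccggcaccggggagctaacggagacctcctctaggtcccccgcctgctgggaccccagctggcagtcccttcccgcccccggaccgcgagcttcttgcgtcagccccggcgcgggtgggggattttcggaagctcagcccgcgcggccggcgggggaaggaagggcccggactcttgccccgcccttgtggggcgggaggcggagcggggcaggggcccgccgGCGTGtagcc
KEAP1: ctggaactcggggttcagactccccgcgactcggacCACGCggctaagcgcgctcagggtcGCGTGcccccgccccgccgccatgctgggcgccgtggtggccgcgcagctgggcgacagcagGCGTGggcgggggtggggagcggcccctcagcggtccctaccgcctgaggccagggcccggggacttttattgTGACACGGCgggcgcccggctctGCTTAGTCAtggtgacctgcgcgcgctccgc
GCLM: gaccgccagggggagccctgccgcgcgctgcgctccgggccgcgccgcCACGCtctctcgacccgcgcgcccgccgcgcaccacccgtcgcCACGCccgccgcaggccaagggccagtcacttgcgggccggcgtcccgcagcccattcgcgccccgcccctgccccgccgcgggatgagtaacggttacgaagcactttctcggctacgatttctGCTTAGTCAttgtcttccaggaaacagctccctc
SRXN1: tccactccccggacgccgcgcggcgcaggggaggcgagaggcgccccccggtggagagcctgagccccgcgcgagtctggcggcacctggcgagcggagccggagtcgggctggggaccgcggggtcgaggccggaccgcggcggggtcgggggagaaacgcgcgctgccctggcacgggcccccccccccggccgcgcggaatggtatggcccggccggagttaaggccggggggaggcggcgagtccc
OSGIN1: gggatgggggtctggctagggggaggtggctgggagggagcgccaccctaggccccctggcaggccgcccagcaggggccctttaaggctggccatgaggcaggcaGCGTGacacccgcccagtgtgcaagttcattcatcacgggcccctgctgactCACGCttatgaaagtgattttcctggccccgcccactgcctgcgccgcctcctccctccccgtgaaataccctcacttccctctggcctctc
GCLC: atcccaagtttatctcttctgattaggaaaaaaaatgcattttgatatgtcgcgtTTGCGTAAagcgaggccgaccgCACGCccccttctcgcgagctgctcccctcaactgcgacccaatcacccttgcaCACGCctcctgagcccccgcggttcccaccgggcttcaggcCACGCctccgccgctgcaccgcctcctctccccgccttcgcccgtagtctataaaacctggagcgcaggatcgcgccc

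An AhR peak overlapped the promoter window of 5 of the 7 genes that had one: NFE2L2, KEAP1, GCLM, SRXN1 and OSGIN1. Over all 15813 genes with such a window, 8.77% had an AhR peak in it. MAFG and GCLC had no AhR peak in theirs. Counting any AhR peak within 1 kb of a start added MAFG and made 6 of 7, against 15.7% of all genes. In 4 of the 5 genes the peak had a merge number of 1, the number at the end of the peak's name that is read here as how many peaks were merged into it. The exception was OSGIN1, with 2.

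GCLM, the modifier subunit of glutamate-cysteine ligase, had the AhR peak chr1:93909431-93909720, which covered all 250 bases before the start. CACGC, the AhR core on the other strand, began at bases 49 and 92 of the window, counted from 1 at its 5′ end, and the antioxidant response element match GCTTAGTCA began at base 217, 34 bases before the start. No C/EBPα peak and no H3K27ac region overlapped this peak.

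KEAP1, the NRF2 inhibitor and substrate adaptor, had the AhR peak chr19:10502682-10502930 over its second annotated start, which lies inside the gene body, and the peak covered bases 92 to 300 of that window. Under it lay GCGTG at base 124, CACGC at base 259, and the 2 antioxidant response element matches TGACACGGC at base 197 and GCTTAGTCA at base 220. Further matches to the AhR core, at bases 37 and 62, lay outside the peak. A C/EBPα peak overlapped it. The other KEAP1 window, round the upper gene end, had neither an AhR peak nor a match to any of the motifs searched.

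OSGIN1, an oxidative stress-induced growth inhibitor, had the AhR peak chr16:83952971-83953224 over bases 1 to 235 of its window, with GCGTG at base 107 and CACGC at base 159 beneath it and a C/EBPα peak on top of it. At NFE2L2 the AhR peak chr2:177264829-177265167 covered bases 1 to 149 of the outer window, and the window's only match, GCGTG at base 241, lay outside it. At SRXN1, which encodes sulfiredoxin, an enzyme that repairs oxidised peroxiredoxins, the peak chr20:653389-653624 covered bases 1 to 62, and the only match, GCGTG at base 274, also lay outside. Both of these peaks ran on beyond the printed bases, where no sequence was read. GCLC, the catalytic subunit of the same ligase as GCLM, had 3 matches to CACGC at bases 78, 132 and 173 and the C/EBP match TTGCGTAA at base 56, with no peak of any of the 4 lists in the window.

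Matches to the AhR core are common in such windows. GCGTG or its complement was found in 7 of the 9 windows of these genes, against 43.0% of all 22156 windows and 50.6% of the 1554 windows that an AhR peak overlapped. TGACNNNGC was found in the windows of GCLM and KEAP1, 2 of 9, against 13.8% of all windows and 16.5% of those with an AhR peak. TTGCNNAA was found in 1 of 9, against 8.69% and 11.9%. The C/EBP-ATF composite TTGCATCA was found in none of the 9, against 0.677% and 0.965%. A match here is a string of letters and does not show that a factor bound it.

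C/EBPα peaks overlapped the promoter windows of 3 of the 7 genes, NFE2L2, KEAP1 and OSGIN1, where 12.4% of all genes had one. No H3K27ac region of the B2 list overlapped any of these windows, and only 1.34% of all genes had one there. Both H3K27ac lists were depleted round starts throughout the genome. From 3000 to 3500 bp off the nearest start the inhibitor list held 6.29 times and the B2 list 6.47 times as many regions as from 2500 to 3000 bp, whereas the ratio was 0.954 for AhR and 0.892 for C/EBPα. No source used here states how the lists were filtered. The lists therefore say little of the mark at the promoters of these genes, and the shares of AhR peaks with H3K27ac given further on are affected by the same step.

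**Figure D1:**
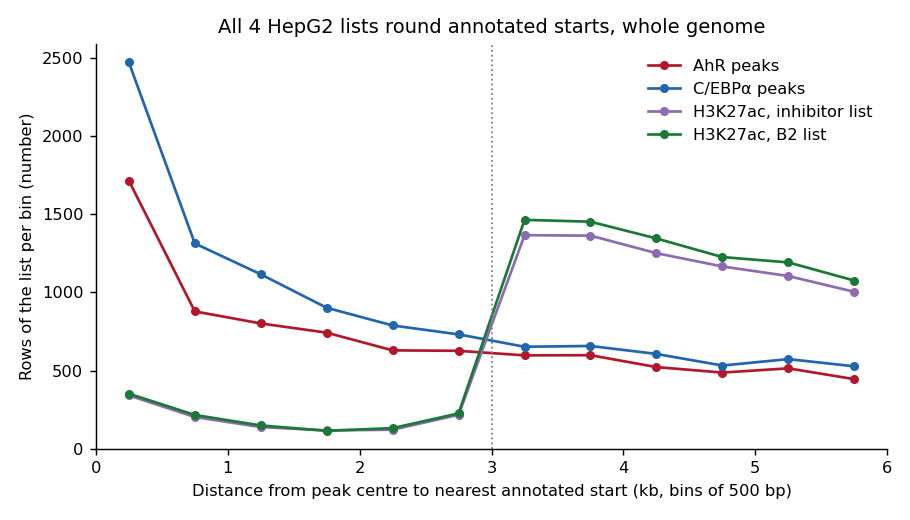
Number of rows of each HepG2 list per 500 bp bin of distance from the row's centre to the nearest annotated start (kb), over the whole genome. Both H3K27ac lists step up at 3 kb (dotted line), by 6.29 times in the inhibitor list and 6.47 times in the B2 list, while AhR and C/EBPα decline across it without a step.

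Within 50 kb of the 9 gene bodies lay 82 AhR peaks, 93 C/EBPα peaks, 156 H3K27ac regions of the inhibitor list and 164 of the B2 list. All 9 genes had at least 1 row in each list, and so did most genes: 85.4% of all protein-coding genes had an AhR peak within 50 kb, 88.6% a C/EBPα peak, 88.1% a region of the inhibitor list and 90.4% a region of the B2 list. The presence of rows was thus near the background for these genes. Their median number of AhR peaks was 7, from 4 to 21, where the median over all genes was 4 with quartiles of 1 and 7. For C/EBPα the medians were 7 over the 9 genes and 4 over all genes. The medians for H3K27ac were 14 against 6 in the inhibitor list and 14 against 7 in the B2 list. Per 100 kb of window, the medians over the 9 genes were 6.57 AhR and 6.2 C/EBPα peaks, against 2.58 and 2.94 over all genes. Counts are of 1 list each, so they carry no replicate error, and neighbours in their order cannot be told apart beyond it.

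**Figure D2:**
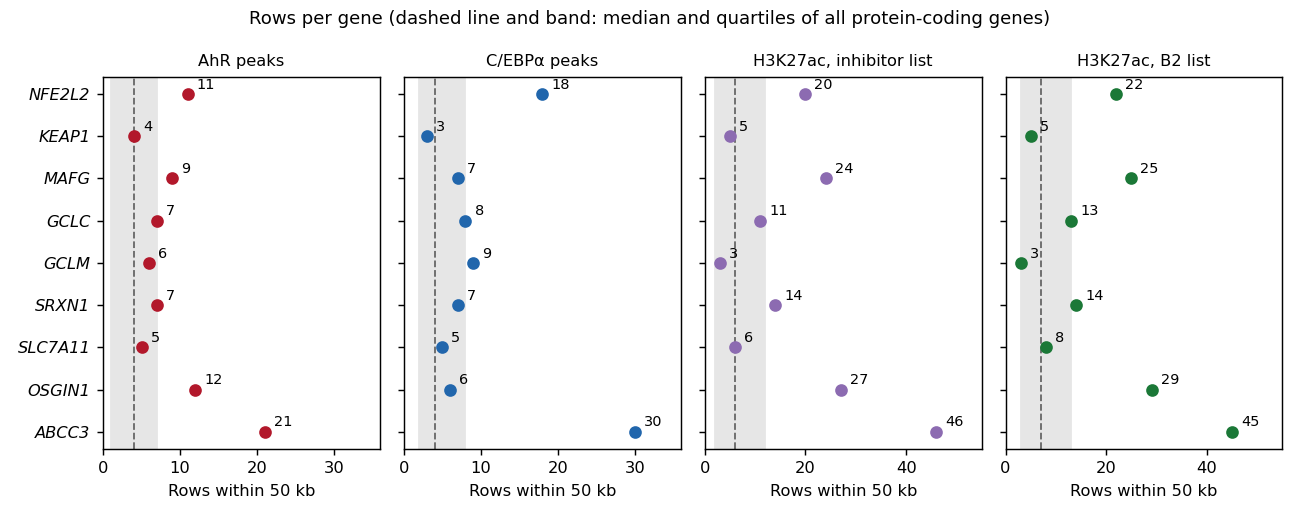
Rows of each list within 50 kb of the body of each of the 9 genes (dots, numbers printed), with the median (dashed) and quartiles (grey band) over all 19974 protein-coding genes. ABCC3 lies farthest to the right in all 4 panels, with 21 AhR and 30 C/EBPα peaks, while for AhR KEAP1, GCLC, GCLM, SRXN1 and SLC7A11, with 4 to 7 peaks, do not exceed the band, which runs from 1 to 7.

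NFE2L2 (gene ID 4780, chr2:177230303-177264727) had 11 AhR peaks, 18 C/EBPα peaks, 20 H3K27ac regions of the inhibitor list and 22 of the B2 list. Of all protein-coding genes, 89.7% had fewer AhR peaks and 97.1% fewer C/EBPα peaks. A C/EBPα peak overlapped 10 of its 11 AhR peaks and 6 of them had H3K27ac as well. Most of the AhR peaks fell in 3 places. Near the start lay chr2:177264829-177265167 at the promoter and chr2:177263417-177263646 inside the gene, both with C/EBPα. Inside the body lay 4 more, of which the one nearest the start with both partners was chr2:177252175-177252430, 11828.5 bp from it. Below the gene, 41149 to 46031 bp from its lower end, 4 AhR peaks stood together between chr2:177184049 and chr2:177189154, and each of the 4 had a merge number of 2, H3K27ac and C/EBPα. The fifth peak below the gene, chr2:177202165-177202391, had H3K27ac without C/EBPα. For the fifth peak, as for the 4, another gene body was nearer than NFE2L2.

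KEAP1 (gene ID 9817, chr19:10486125-10503356) had the fewest AhR peaks of the 9, with 4, and 3 C/EBPα peaks, 5 H3K27ac regions of the inhibitor list and 5 of the B2 list. Of all genes, 48.6% had fewer AhR peaks. It was the only one of the 9 without an AhR peak that had both partners, while the other 8 had 1 or more, as did 62.2% of all genes. However, 3 of the 4 AhR peaks at KEAP1 lay within 3 kb of an annotated start, where the B2 list is sparse. Of its AhR peaks, chr19:10502682-10502930 and chr19:10503645-10503856 lay near its starts and overlapped C/EBPα alone. The peak chr19:10485965-10486360 at the lower gene end overlapped H3K27ac alone, and chr19:10515774-10516013, inside the neighbouring gene S1PR5, overlapped neither.

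MAFG (gene ID 4097, chr17:81918270-81931244), a small MAF partner of NRF2, had 9 AhR peaks, 7 C/EBPα peaks, 24 regions of the inhibitor list and 25 of the B2 list. It lies in the most crowded window of the 9, with 10 other protein-coding genes within 50 kb. Of its 9 AhR peaks, 5 lay only in another gene and 2 lay between genes with another gene nearer. The other 2 had MAFG as the nearest gene. Those 2, chr17:81924949-81925162 and chr17:81926836-81927084, lay inside MAFG and overlapped neither C/EBPα nor H3K27ac. In all, 7 of the 9 AhR peaks at MAFG overlapped neither, the most of any of the 9 genes. Of the 9, 5 lay within 3 kb of an annotated start, where the B2 list is sparse. A single peak, chr17:81967982-81968210, had both partners, 40361 bp from the MAFG start. Of its 25 regions of the B2 list, 2 held an AhR peak, the lowest share among the 9 genes.

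GCLC (gene ID 2729, chr6:53497341-53545101) had 7 AhR peaks, 8 C/EBPα peaks, 11 regions of the inhibitor list and 13 of the B2 list, with no other protein-coding gene in the window. All 7 AhR peaks had GCLC as the nearest gene. Inside the gene, 4 AhR peaks stood between chr6:53512724 and chr6:53517350, all 4 with H3K27ac and 2 of them also with C/EBPα. The AhR peak nearest the start was chr6:53548145-53548358, 3044 bp beyond the gene end that holds it, with a C/EBPα peak and no H3K27ac. The nearest with both partners was chr6:53564749-53564976, 19761.5 bp before the start.

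GCLM (gene ID 2730, chr1:93885199-93909430) had 6 AhR and 9 C/EBPα peaks and only 3 H3K27ac regions in each list, and 23.7% of all genes had fewer regions of the B2 list. C/EBPα overlapped 5 of its 6 AhR peaks, the promoter peak being the exception. The AhR peak chr1:93905866-93906079, inside the gene and 3457.5 bp from the start, had C/EBPα and H3K27ac, as did chr1:93947161-93947378 above the gene. A pair below, chr1:93845576-93845821 and chr1:93847471-93847692, lay inside BCAR3 and had C/EBPα without H3K27ac. This pair lay within 3 kb of an annotated start, where the B2 list is sparse.

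SRXN1 (gene ID 140809, chr20:646615-653200) had 7 AhR peaks, 7 C/EBPα peaks and 14 regions in each H3K27ac list. None of its AhR peaks lay inside the gene, and for all 7 it was the nearest gene. They fell on both sides of the small gene body. Below the lower end, 5 AhR peaks lay within 4717 bp, between chr20:641675 and chr20:646600, and all 5 overlapped H3K27ac. Of these, chr20:644971-645208 had C/EBPα as well. Round the start lay chr20:653389-653624 with neither partner and chr20:653947-654153 with C/EBPα. Both lay within 3 kb of the start, where the B2 list is sparse.

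SLC7A11 (gene ID 23657, chr4:138164097-138242349), the transporter subunit that brings in cystine for glutathione synthesis, had 5 AhR peaks and 5 C/EBPα peaks, with 6 regions of the inhibitor list and 8 of the B2 list. Its window held no other protein-coding gene. Per 100 kb it had 2.81 AhR peaks, the lowest of the 9 and above 53.9% of all genes. C/EBPα overlapped 4 of its 5 AhR peaks and 3 had both partners. The AhR peak chr4:138242335-138242602 spanned the upper end of the gene body and had C/EBPα without H3K27ac. The one with both partners nearest a gene end was chr4:138161239-138161493, 2731 bp from it.

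OSGIN1 (gene ID 29948, chr16:83953240-83966332) had 12 AhR peaks, 6 C/EBPα peaks, 27 regions of the inhibitor list and 29 of the B2 list. Of all genes, 91.7% had fewer AhR peaks, and per 100 kb its 10.6 AhR peaks stood above 97.8% of all genes. Before the start, 9 of the 12 peaks lay in a run from chr16:83927684 to chr16:83953224, and the other 3 lay inside the gene or beyond it. OSGIN1 was the nearest gene for only 7 of the 12. Of the rest, 2 lay inside the neighbouring gene NECAB2. H3K27ac overlapped 9 of the 12 and C/EBPα 5. The peak nearest the start with both was chr16:83947945-83948149, 5193 bp before it. The 3 AhR peaks without H3K27ac were the 3 nearest the start, centred within 2 kb of it, where the B2 list is sparse.

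ABCC3 (gene ID 8714, chr17:50634881-50692253), a pump of the liver cell's blood-facing membrane that exports glucuronide and other conjugates, had the most rows of the 9 in every list: 21 AhR peaks, 30 C/EBPα peaks, 46 regions of the inhibitor list and 45 of the B2 list. Fewer AhR peaks were found at 98.7% of all genes and fewer C/EBPα peaks at 99.6%. Inside the gene lay 16 of its 21 AhR peaks, from chr17:50634678, which spans the lower gene end, to chr17:50691956. C/EBPα overlapped 19 of the 21, H3K27ac 18, and both 16. Every AhR peak at ABCC3 had at least 1 of the partners. The peak with both nearest a gene end was chr17:50691678-50691956, 436 bp from the upper one. Over 500 kb from the 9 genes, the protein-coding genes with row numbers most like those of ABCC3, by the sum of absolute differences over the 4 lists, were SLX4IP with 22 AhR and 30 C/EBPα peaks (sum 2), LYRM4 with 21 and 28 (sum 5) and SLC13A3 with 20 and 30 (sum 5).

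**Figure D3:**
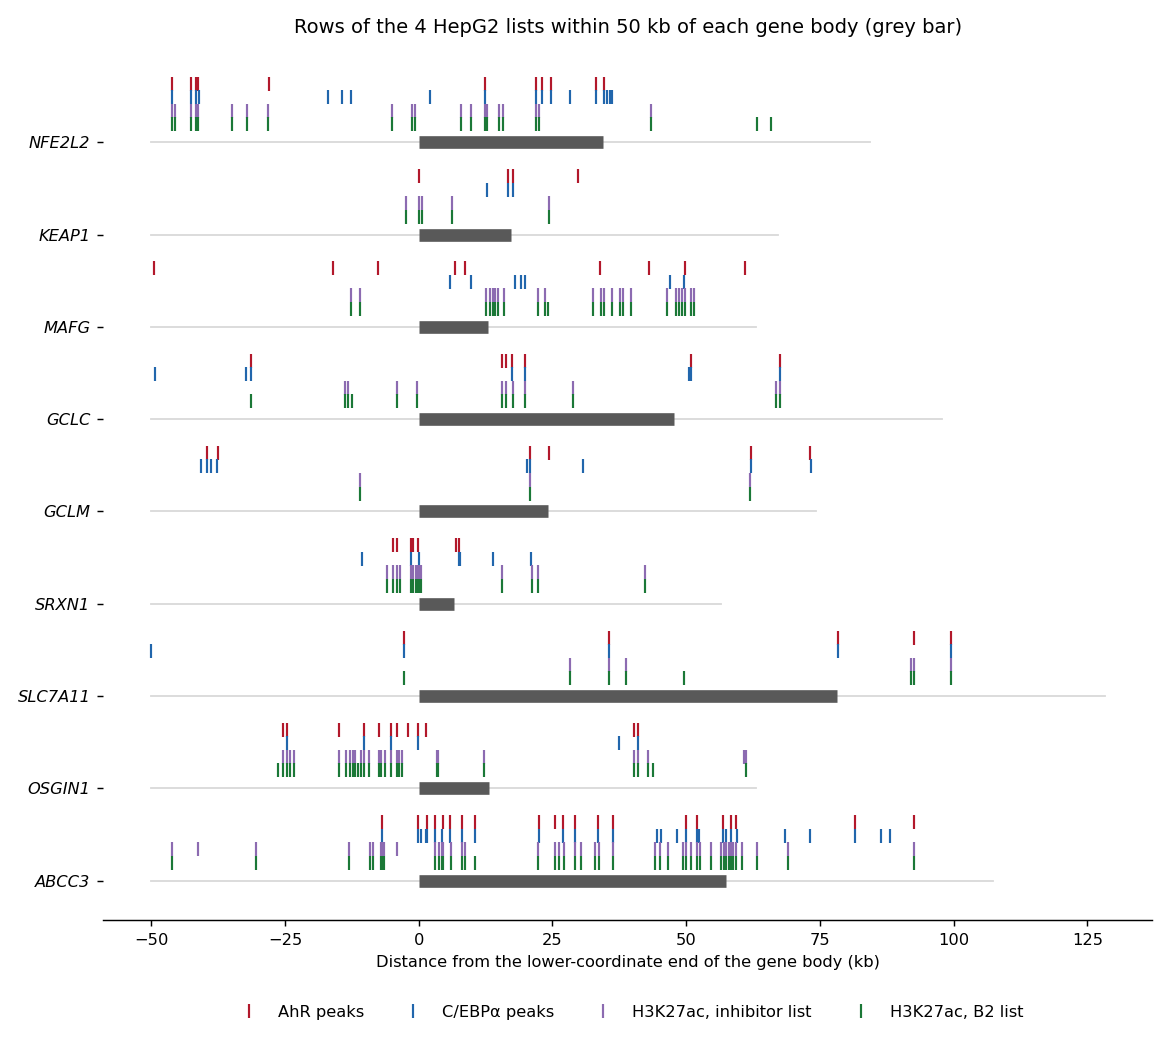
Rows of the 4 HepG2 lists (ticks) by distance in kb from the lower-coordinate end of each gene body (grey bar), with thin lines for the windows of 50 kb on either side. AhR and C/EBPα ticks line up in a cluster below NFE2L2 and along the body of ABCC3, while most AhR ticks at MAFG stand without a C/EBPα tick.

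Over the 9 genes, C/EBPα overlapped 53 of the 82 AhR peaks, or 64.6% (95% Wilson interval 53.8 to 74.1), against 55.3% of all AhR peaks. An H3K27ac region of the B2 list overlapped 54, or 65.9% (55.1 to 75.2), against 70.7% of all. Both overlapped 37, or 45.1% (34.8 to 55.9), against 41.1% of all, and neither overlapped 12, or 14.6% (8.57 to 23.9), against 15.1%. Each of these intervals holds the share of all AhR peaks, so that no difference was detectable with 82 peaks. Restricting the comparison to the 47681 AhR peaks within 50 kb of a protein-coding gene gave 55.3%, 69.5% and 40.4% for C/EBPα, H3K27ac and both. Where an AhR and a C/EBPα peak overlapped, the median distance between their centres was 20.5 bp over 53 AhR peaks at these genes and 21.5 bp over all 31401. Overlap itself limits this distance, since the median widths over the whole lists were 234 bp for AhR and 231 bp for C/EBPα. Seen from the other side, 57.0% of the 93 C/EBPα peaks and 34.1% of the 164 regions of the B2 list held an AhR peak at these genes, against 50.1% and 37.8% in all.

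**Figure D4:**
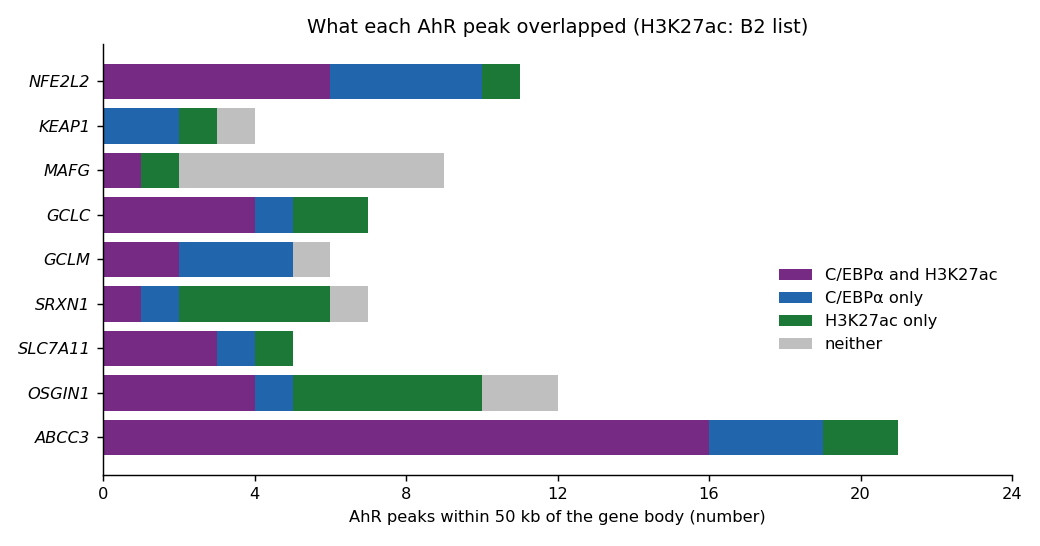
Number of AhR peaks within 50 kb of each gene body, split by overlap with C/EBPα and with H3K27ac (B2 list). ABCC3 has 16 of 21 AhR peaks with both and none with neither, MAFG has 7 of 9 with neither, and KEAP1 has none with both. Within 3 kb of a start, where the B2 list is sparse, lie 3 of the 4 peaks at KEAP1 and 5 of the 9 at MAFG.

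The genes differed among themselves more than their sum shows. C/EBPα overlapped 10 of 11 AhR peaks at NFE2L2 and 19 of 21 at ABCC3, but 1 of 9 at MAFG and 2 of 7 at SRXN1. H3K27ac overlapped 6 of 7 AhR peaks at GCLC and 18 of 21 at ABCC3, but 1 of 4 at KEAP1, 2 of 9 at MAFG and 2 of 6 at GCLM. Within 3 kb of an annotated start, where the H3K27ac lists are sparse, lay 3 AhR peaks at KEAP1, 5 at MAFG and 3 at GCLM. GCLC had 0 there and ABCC3 had 1, though no start of ABCC3 itself was in the table. The part of this in the H3K27ac difference was not tested. ABCC3 alone supplied 16 of the 37 AhR peaks with both partners.

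The AhR peaks of these genes that overlapped H3K27ac all lay beyond 3 kb of an annotated start. Of the 82 AhR peaks, 19 lay within 3 kb of an annotated start of any gene, 23.2% (15.4 to 33.4) against 9.78% of all AhR peaks and 11.6% of those within 50 kb of a protein-coding gene. At their own starts, OSGIN1 had 3 of these, NFE2L2, KEAP1, MAFG and SRXN1 had 2 each and GCLM had 1, and the others lay by starts of neighbouring genes. MAFG, with 10 other protein-coding genes in its window, supplied 5 of the 19. Neighbouring peaks are not independent, which makes the interval round 23.2% too narrow, and the part of gene density in this share was not tested. SLC7A11 and ABCC3 had no start in the table, so AhR peaks by their own starts could be counted as beyond 3 kb. None of the 19 overlapped H3K27ac, which allows a share of up to 16.8%, and 7.16% of all AhR peaks so near a start did. Beyond 3 kb, 54 of 63 overlapped H3K27ac, or 85.7% (75.0 to 92.3), an interval that holds the 77.6% of all such AhR peaks. ABCC3 supplied 18 of the 54. The step in the H3K27ac lists at 3 kb, given above, moves with the difference between AhR peaks within and beyond that distance. Its part in that difference was not tested. The C/EBPα list has no such step, and C/EBPα overlapped 69.8% (57.6 to 79.8) of these genes' AhR peaks beyond 3 kb, against 56.0% of all, and 47.4% (27.3 to 68.3) within it, against 48.9%. The interval beyond 3 kb lies above the share of all such peaks, but neighbouring peaks are not independent, which makes it too narrow. ABCC3 supplied 18 of the 44 such AhR peaks with C/EBPα, and without it the share was 26 of 43, or 60.5% (45.6 to 73.6), an interval that holds the 56.0% of all.

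The 9 AhR peaks beyond 3 kb of a start without H3K27ac were 2 at NFE2L2, 2 at MAFG, 2 at ABCC3 and 1 each at GCLC, GCLM and SLC7A11. The SLC7A11 peak and 1 of those at ABCC3 spanned an end of the gene body. The other at ABCC3, chr17:50636400-50636621, began 1519 bp inside the end that the first one spanned. For these 2 genes no start was in the table, so these peaks may lie within 3 kb of their own starts.

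The 2 H3K27ac lists were nearly the same at these genes. Of the 156 regions of the inhibitor list, 3 had no region of the same coordinates in the B2 list, or 1.92% (0.656 to 5.5), against 4.06% of all 97145 regions. Of the 164 regions of the B2 list, 11 had none in the inhibitor list, or 6.71% (3.79 to 11.6), against 12.6% of all 106666. The first interval holds the share of all regions and the second ends below it. Neighbouring regions are not independent, which makes both intervals too narrow. The experiments differ in their number of H3K27ac libraries, 6 for the inhibitor list and 10 for the B2 list, and which conditions entered each list is not stated. Coordinates that recur to the base also mean that the lists cannot be treated as separate calls. A region found in 1 list alone is therefore not evidence of a response to the inhibitor.

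The 3 regions of the inhibitor list alone were chr16:84013945-84014180 by OSGIN1 and chr17:50593420-50593670 and chr17:50630621-50630898 by ABCC3. None of them overlapped an AhR or a C/EBPα peak. Of all 3943 regions of the inhibitor list alone, 9.36% overlapped an AhR peak, so 0 of 3 does not differ detectably from that share. The 11 regions of the B2 list alone were spread over 6 genes: OSGIN1 had 3, NFE2L2, GCLC and SLC7A11 had 2 each, and MAFG and ABCC3 had 1 each. An AhR peak overlapped 3 of the 11, against 23.2% of all regions of the B2 list alone, and each of these 3 also had a C/EBPα peak. They were chr6:53465863-53466137 by GCLC, chr4:138161258-138161528 by SLC7A11 and chr17:50645328-50645560 inside ABCC3. The other 8 overlapped no AhR peak: chr2:177293529-177293735 and chr2:177296141-177296344 above NFE2L2, chr17:81942198-81942528 by MAFG, chr6:53484671-53484897 by GCLC, chr4:138213502-138213704 inside SLC7A11, and chr16:83926769-83927000, chr16:83941741-83941950 and chr16:83996922-83997169 by OSGIN1. KEAP1, GCLM and SRXN1 had no region in 1 list alone.

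Further genes of the pathway gave similar numbers. Of 48 other regulators and targets of NRF2, all 48 had AhR, C/EBPα and H3K27ac rows within 50 kb, where 85.4% to 90.4% of all genes had a row of each list. An AhR peak with both partners was found at 44 of the 48, against 62.2% of all genes. Their median was 7.5 AhR peaks and 8 C/EBPα peaks, against the medians of 7 and 7 over the 9 genes and 4 and 4 over all genes. By role, the median number of AhR peaks was 11.5 over 4 export pumps, 11 over 10 redox enzymes, 9 over 4 thioredoxin genes, 7 over 13 genes of glutathione synthesis and use, 6.5 over 6 enzymes that supply NADPH and 5 over 9 regulators. The 2 iron-storage genes had 7 and 19. The lowest count of the 48 was 1 AhR peak, at CUL3, the scaffold of the KEAP1 ligase. An AhR peak with both partners was found at 6 of the 9 regulators, near the 62.2% of all genes. Neighbouring genes share peaks in these counts and medians: the windows of AKR1C1, AKR1C2 and AKR1C3 held 26 AhR peaks in all, and 8 AhR peaks lay in the windows of both GSTA1 and GSTA2.

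The most AhR peaks among these 48 were at FTH1, the ferritin heavy chain, with 19, 12 of them with both partners. AKR1C2 had 18 and AKR1C1 had 15, each with 5 that had both. These aldo-keto reductase genes lie side by side, and 15 AhR peaks lay in both of their windows, so the 2 counts are not separate. ABCC3, with 21, exceeded all 48.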

How the data were processed

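The authors deposited 1 peak list per experiment, whose values are other than signal or counts: per the file contents, a name, chromosome, start, end and strand sign for each peak, in hg38, with no value per library. The submitters' processing notes name the tools Bowtie2 and HOMER, with no version. No source used here states their settings and filters or which peak sets were merged into a list. Peak names end in a number, which was read as a merge number.

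Rows within 50 kb of the GRCh38.p14 gene bodies were counted, and peaks overlapped when they shared at least 1 bp. Gene and promoter sequences came from RefSeq. The same counts were made over 19974 protein-coding genes, or 15813 with a promoter window. Wilson intervals at 95% cover counting error over peaks only, and neighbouring peaks are not independent. With no values per library, depth is unknown, no test between conditions was made and no replicate error exists.

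The members and gene lists were chosen with earlier results of these data known. Named were all 9 members; of the 48 other pathway genes the 3 with the most AhR peaks and any with none, of which there were 0; the 3 genes most like the member with the most AhR peaks; AhR peaks at promoters; the AhR peak with both partners nearest the start; and H3K27ac regions of 1 list alone. Other peaks and CUL3 were named after their values were seen. Alternatives were windows of 10 and 100 kb, merged peaks only, the nearest gene only, 50% overlap, centres within 500 bp, 1 kb from a start, and the inhibitor list. The mouse lists were not used here. The routines were checked on simulated intervals. Work was done in Python 3.11.15 with pandas 2.3.3, NumPy 2.4.6 and SciPy 1.17.1, and figures with Matplotlib 3.10.9.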

Additional observations from a re-analysis of the deposited data

How the results depend on the processing

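All 9 genes kept at least 1 AhR peak with windows of 10 or 100 kb, with merged peaks only and with the nearest gene only. The number of AhR peaks, 82 at 50 kb, was 54 at 10 kb, 135 at 100 kb and 31 with merged peaks only, by construction of fewer or more bases and peaks, and 56 with the nearest gene only. The C/EBPα share, 64.6% of AhR peaks, stayed between 60.5% and 69.8% over its alternatives. The lowest value was that of AhR peaks beyond 3 kb of a start without ABCC3, chosen after seeing the data. The share with H3K27ac, 65.9%, was 77.4% with merged peaks only in both lists (31 AhR peaks; the cause was not tested) and 85.7% beyond 3 kb of a start (63 AhR peaks), an alternative chosen after seeing the data that leaves out the stretch where the H3K27ac lists are sparse; under the others it ran from 62.2% to 65.9%. Of the B2-list H3K27ac regions, 93.3% had the same coordinates in the inhibitor list, and 97.0% of the 99 within 10 kb did, where the cause was not tested. Promoter AhR peaks were found at 5 genes, or 6 within 1 kb of a start. No paired analysis was possible because the lists carry no columns for replicates. With no value per library, neither depth nor the spread between replicates limits or supports any count printed here, and differences between conditions at these genes were not measured.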
